A study of Brassica napus with 12 samples.

Results

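A set of 79 genes of rapeseed, *Brassica napus*, had mean changes of opposite sign in 2 pools of seedlings held under water. They were taken from the 41498 genes on A and C chromosomes with a mean of at least 2 RPKM over 12 libraries, among 96921 such genes in all and 109614 genes in the table. RPKM counts reads relative to the length of the gene and the size of the library. A gene was taken when the mean log2(RPKM + 1) of submerged minus control libraries was at least 0.6 in one pool and -0.6 or lower in the other. In 38 genes the change was positive in the resistant and negative in the susceptible pool, and in 41 it was the other way round. Both responses therefore chose the genes, so their changes are given as a description with no test.

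The 4 groups were resistant seedlings submerged for 24 h, resistant controls, susceptible seedlings submerged for 24 h and susceptible controls, with 3 biological replicates each. The seedlings were about a week old, with flat cotyledons and a first true leaf just forming, grown on wet paper with 16 h of light and 8 h of dark; distilled water then covered them fully, while controls stayed under normal conditions. Each pool mixed equal amounts of seedlings from 5 germplasm, called resistant or sensitive by the submitters, so every library is a mixture. What separates the germplasm of 1 pool is not visible here, and a difference between pools cannot be told apart from the germplasm that happened to be mixed. In whole seedlings, fewer cells of a type and less RNA per cell cannot be told apart either.

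Water slows the diffusion of gases, so a submerged plant runs short of oxygen and of carbon dioxide and gathers ethylene. Shoots then turn from respiration to fermentation and draw on stored sugars, and transcription factors of the ethylene response family, which oxygen normally marks for breakdown, switch on a common set of low-oxygen genes. Rapeseed carries an A and a C subgenome from its parent species, so most genes have a close copy on the other subgenome. The identifiers in the table name a chromosome and an order along it, but none matched the reference table used here, so no gene is named by function and no cell type marker could be checked.

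Spacing of the lowest values put the depth of the libraries between 0.638 and 1 of the deepest, a resistant control; how many reads that means cannot be known from RPKM, which leaves counting error without an interval. The median change over the 41498 genes was -0.19 for resistant and -0.17 for susceptible seedlings, so a change of -0.6 lies nearer to the middle of all genes than one of 0.6. After each library was rescaled by its median ratio to the others, 39 genes met the limits as higher in the resistant and lower in the susceptible pool and 55 the other way, of which 21 and 28 were among the 79. With quantile normalization the numbers were 46 and 56, with 28 and 35 of the 79.

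Opposite change of this size was rare next to shared change. The limit of 0.6 was passed upward in both pools by 3843 genes and downward in both by 4909, against the 79. Among the 38 genes higher under water in the resistant pool, resistant seedlings had a median log2 change of 1.02 and susceptible ones of -0.87; among the other 41 genes it was -0.90 and 0.95. SE in what follows is that of each change. Both changes reached 1 on the log2 scale in 6 of the 38 and 9 of the 41. Resistant changes ran from 0.60 to 2.39 in the first list and from -2.31 to -0.61 in the second, and susceptible changes from -4.21 to -0.60 and from 0.61 to 2.01.

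**Figure D1:**
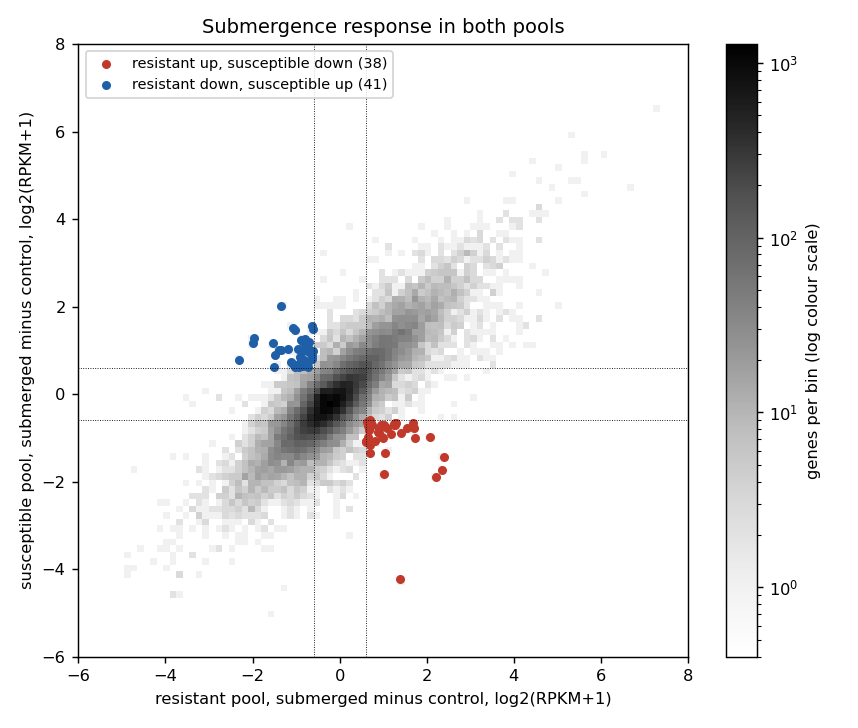
Log2(RPKM + 1) of submerged minus control libraries in the resistant pool (horizontal) and in the susceptible pool (vertical), with the 41498 genes as grey bins on a log colour scale, the 2 lists as points and dotted lines at 0.6 and -0.6. Most genes lie along the rising diagonal, and the 38 red and 41 blue genes sit in the opposite corners.

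Libraries of the same group often disagreed on these genes. Submerged and control libraries did not overlap in either pool for 17 of the 38 genes, while 0.342% of the 41498 genes had such a pattern. The same held for 16 of the 41, against 0.33% of the 41498, while 37.1% were free of overlap with the same sign in both pools. The limits on both changes favour such genes, so nothing is read from these counts. A further 7 genes of the 38 were free of overlap in the resistant pool alone (6.76% of the 41498 in that direction) and 12 of the 41 (13.3%). In the susceptible pool alone it was 7 of the 38 (8.68%) and 7 of the 41 (3.41%), and 7 and 6 genes overlapped in both pools (30.1%). The difference between the responses passed the interaction test of limma, a linear model over all genes, at an adjusted p under 0.05 for 8 of the 38, with 0.192% of the 57391 tested genes called in that direction. It passed for 8 of the 41 in the other direction, with 0.141% called. The limits used these same contrasts, so these calls add no support.

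**Figure D2:**
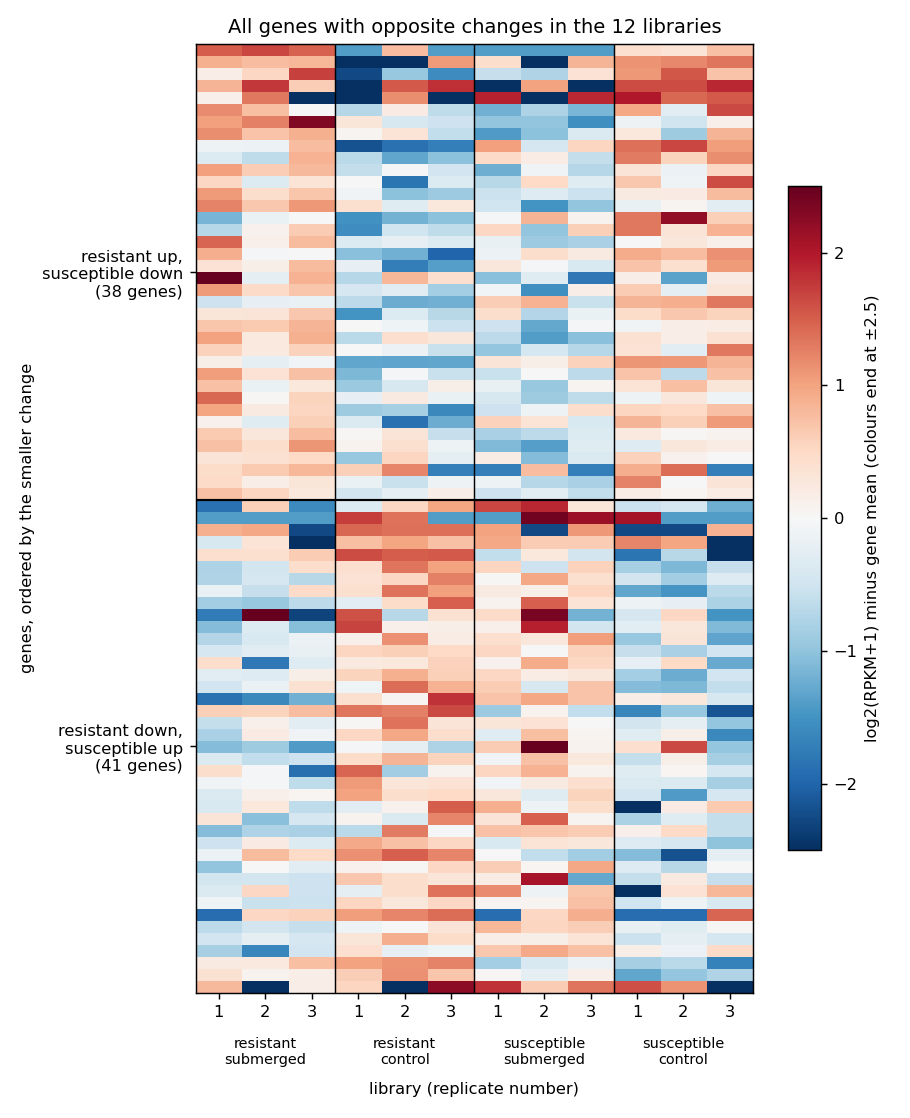
Log2(RPKM + 1) minus the gene's mean over the 12 libraries for all 79 genes (rows, ordered within each list by the smaller of the absolute changes) in each library (columns, by group and replicate number). Group blocks of 1 colour show the opposite changes, and rows with dark blue cells beside red ones within a group are genes whose replicates disagree.

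Among genes higher under water in the resistant and lower in the susceptible pool, those without overlap are led by a weakly expressed gene. BnaC06G0177700ZS had 6.46, 7.33 and 6.31 RPKM in submerged and 0, 3.49 and 0 RPKM in control libraries of the resistant pool. It was listed at 0 in all 3 susceptible submerged libraries, against 2.51, 2.33 and 3.37 RPKM in susceptible controls. Its log2 changes were 2.22 and -1.89, and the only group in which its replicates disagreed was the resistant control, where 1 library was as high as the highest susceptible control and 2 were listed at 0. BnaC04G0595200ZS had 47.8, 61.6 and 141 RPKM in submerged and 8.11, 21.5 and 13.6 RPKM in control libraries of the resistant pool. Susceptible seedlings gave 28.1, 24.9 and 54.96 RPKM when submerged and 91.00, 127 and 69.99 RPKM as controls. The changes were 2.39 and -1.43 (SE 0.45), the third resistant submerged library held most, and resistant controls were the lowest group of all.

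BnaC07G0021000ZS had 7.55, 9.02 and 19.7 RPKM in submerged and 4.16, 2.17 and 1.92 RPKM in control libraries of the resistant pool. Susceptible seedlings gave 1.10, 1.12 and 0.447 RPKM when submerged and 2.81, 1.94 and 3.58 RPKM as controls. This gene was highest in resistant submerged seedlings, with log2 changes of 1.74 and -0.998 (SE 0.33), and the groups of controls of the pools lay together. BnaA04G0246800ZS had 16.7, 16.4 and 32.1 RPKM in submerged and 3.26, 4.33 and 4.92 RPKM in control libraries of the resistant pool. Susceptible seedlings gave 38.5, 13.4 and 27.1 RPKM when submerged and 49.1, 60.9 and 39.1 RPKM as controls. Here the resistant controls stood apart from all other libraries, at 3.26 to 4.92 RPKM where the lowest of the others held 13.4. The log2 changes of 2.08 and -0.99 (SE 0.35) brought the submerged groups of the pools close to each other. BnaC09G0170700ZS had 1.87, 1.35 and 5.59 RPKM in submerged and 1.28, 0.470 and 0.790 RPKM in control libraries of the resistant pool. Susceptible seedlings gave 4.06, 3.13 and 1.39 RPKM when submerged and 7.96, 4.31 and 7.13 RPKM as controls. It had log2 changes of 0.96 and -0.99 (SE 0.39), and the lowest resistant submerged library, at 1.35 RPKM, lay just above the highest resistant control, at 1.28.

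BnaC08G0512600ZS had 10.9, 6.75 and 8.18 RPKM in submerged and 4.33, 1.78 and 2.04 RPKM in control libraries of the resistant pool. Susceptible seedlings gave 2.90, 3.57 and 2.90 RPKM when submerged and 5.69, 5.57 and 8.87 RPKM as controls. Ranges of resistant submerged and susceptible control libraries overlapped, as did those of the other groups, and log2 changes of 1.41 and -0.88 (SE 0.25) were measured. BnaA04G0210200ZS had 7.29, 4.61 and 6.38 RPKM in submerged and 3.61, 1.84 and 3.17 RPKM in control libraries of the resistant pool. Susceptible seedlings gave 1.49, 0.244 and 0.755 RPKM when submerged and 2.09, 2.65 and 1.93 RPKM as controls. Resistant submerged libraries were the highest for this gene and susceptible submerged the lowest, at log2 changes of 0.88 and -0.87 (SE 0.26). BnaA04G0127200ZS had 20.9, 7.70 and 12.8 RPKM in submerged and 5.31, 5.98 and 5.34 RPKM in control libraries of the resistant pool. Susceptible seedlings gave 5.995, 3.26 and 3.59 RPKM when submerged and 7.11, 8.76 and 7.71 RPKM as controls. Controls of the pools were close for this gene, between 5.31 and 8.76 RPKM in all 6 libraries, and submerged libraries of each pool all lay on 1 side of the controls of that pool (log2 changes of 1.08 and -0.78, SE 0.28).

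**Figure D3:**
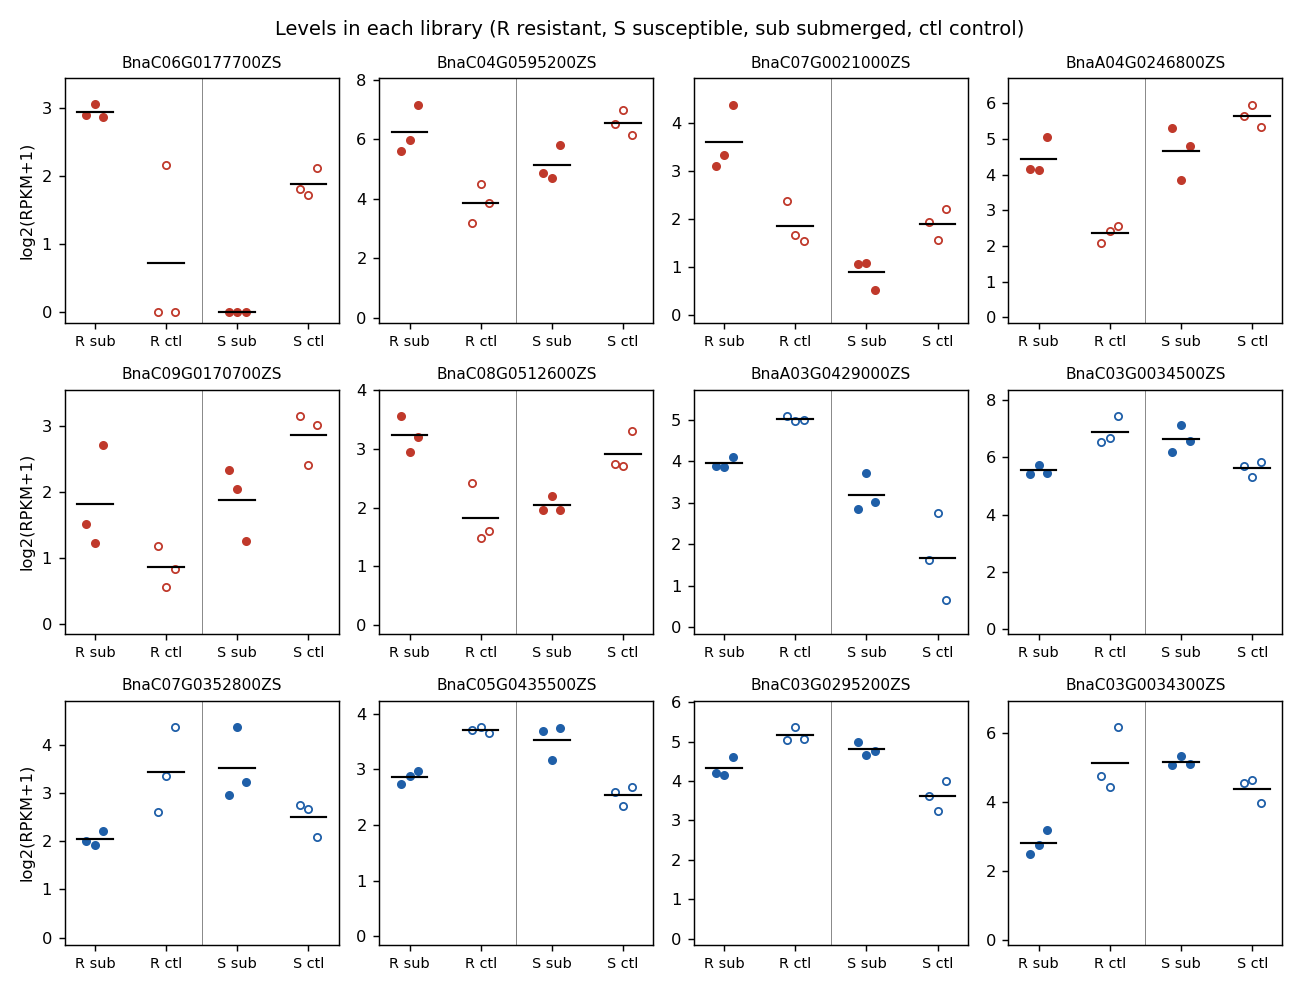
Log2(RPKM + 1) in each library of the 6 genes of each list with the largest smaller change among those without overlap, in red where the resistant pool was higher under water and blue where it was lower. Filled points are submerged and open points control libraries, bars are means of 3, and in each panel the change has opposite signs left and right of the grey line.

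Of the genes lower under water in the resistant and higher in the susceptible pool, 8 led by the same rule. BnaC03G0034500ZS had 41.5, 52.8 and 43.3 RPKM in submerged and 91.5, 101.2 and 172 RPKM in control libraries of the resistant pool. Susceptible seedlings gave 72.05, 139.7 and 93.8 RPKM when submerged and 51.1, 38.4 and 56.2 RPKM as controls. All 6 libraries with low values, from 38.4 to 56.2 RPKM, were resistant submerged or susceptible control ones, and log2 changes of -1.34 and 1.02 (SE 0.28) were measured. BnaC07G0352800ZS had 2.99, 2.79 and 3.64 RPKM in submerged and 5.08, 9.13 and 19.6 RPKM in control libraries of the resistant pool. Susceptible seedlings gave 6.75, 19.5 and 8.30 RPKM when submerged and 5.75, 5.36 and 3.23 RPKM as controls. Resistant submerged libraries were within 1 RPKM of each other, while 1 library in each of the high groups reached about 20 RPKM (log2 changes of -1.39 and 1.01, SE 0.43).

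BnaC05G0435500ZS had 5.65, 6.36 and 6.82 RPKM in submerged and 11.98, 12.6 and 11.6 RPKM in control libraries of the resistant pool. Susceptible seedlings gave 11.9, 8.03 and 12.4 RPKM when submerged and 5.02, 4.07 and 5.41 RPKM as controls. Its replicates lay close together, with a within-group SD of 0.190 on the log2 scale. Its log2 changes of -0.85 and 0.995 (SE 0.16) left resistant submerged libraries, at 5.65 to 6.82 RPKM, a little above susceptible controls, at 4.07 to 5.41 RPKM. BnaC03G0295200ZS had 17.4, 16.8 and 23.5 RPKM in submerged and 31.9, 40.2 and 32.6 RPKM in control libraries of the resistant pool. Susceptible seedlings gave 30.9, 24.4 and 26.1 RPKM when submerged and 11.3, 8.47 and 15.1 RPKM as controls. All 4 groups were separate, in rising order susceptible control, resistant submerged, susceptible submerged and resistant control. The measured change was -0.84 for resistant and 1.18 for susceptible seedlings. BnaA05G0421900ZS had 4.13, 4.34 and 2.51 RPKM in submerged and 10.4, 5.76 and 5.99 RPKM in control libraries of the resistant pool. Susceptible seedlings gave 4.23, 5.39 and 6.35 RPKM when submerged and 3.24, 3.28 and 2.07 RPKM as controls. It lay at low RPKM in every library but the first resistant control, and had log2 changes of -0.83 and 0.71 (SE 0.24).

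Only 6 of the 79 genes lay next to another of them, at most 5 tested genes apart, and they formed 3 pairs, each within 1 list. On C03, BnaC03G0034300ZS lies 2 tested genes from BnaC03G0034500ZS, described above. BnaC03G0034300ZS had 4.66, 5.76 and 8.05 RPKM in submerged and 26.3, 20.6 and 71.2 RPKM in control libraries of the resistant pool. Susceptible seedlings gave 32.8, 39.2 and 33.1 RPKM when submerged and 22.3, 23.8 and 14.7 RPKM as controls. Its resistant submerged level was below all other groups, with log2 changes of -2.31 and 0.79 (SE 0.37). On A03, BnaA03G0429000ZS and BnaA03G0429100ZS are immediate neighbours. BnaA03G0429000ZS had 13.8, 13.6 and 16.2 RPKM in submerged and 33.1, 30.5 and 31.1 RPKM in control libraries of the resistant pool. Susceptible seedlings gave 6.21, 12.2 and 7.06 RPKM when submerged and 2.10, 5.78 and 0.578 RPKM as controls. BnaA03G0429100ZS showed the same order of groups at 10.7, 10.5 and 12.3 RPKM in submerged and 18.8, 17.6 and 23.4 RPKM in control libraries of the resistant pool. Susceptible libraries held 3.17, 7.27 and 4.12 RPKM under water and 1.53, 3.05 and 0.742 RPKM as controls. Every resistant library was above 10 RPKM for both genes of the A03 pair, and susceptible submerged libraries were between resistant and susceptible control ones.

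The third pair lies on A01. BnaA01G0415300ZS had 19.9, 17.1 and 27.03 RPKM in submerged and 13.1, 3.90 and 5.23 RPKM in control libraries of the resistant pool. Susceptible seedlings gave 18.7, 14.8 and 11.5 RPKM when submerged and 25.6, 20.4 and 32.9 RPKM as controls. BnaA01G0415400ZS had 13.98, 10.2 and 19.9 RPKM in submerged and 9.80, 2.80 and 4.87 RPKM in control libraries of the resistant pool. Susceptible libraries held 19.6, 16.5 and 9.64 RPKM under water and 23.8, 20.01 and 27.8 RPKM as controls. The first resistant control was the highest of its group for both genes, at 13.1 and 9.80 RPKM, and susceptible submerged libraries also had the same order in both. Resistant changes were 1.54 and 1.29, and susceptible ones -0.77 and -0.66. Whether these neighbours are near-identical copies that share reads is not known from the table, so the split of signal within each pair is uncertain.

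The most abundant genes of the set were few. Only 6 of the 79 averaged 50 RPKM or more, and the median of the means was 8.13 RPKM, against 7.74 RPKM for the 41498 genes. Means ran from 2.07 to 81.1 RPKM in the first and from 2.28 to 187 RPKM in the second list, with 13 genes of each under 5 RPKM. BnaC07G0363400ZS was the most abundant, at 187 RPKM on average. It had 88.03, 174 and 144 RPKM in submerged and 188, 179 and 252 RPKM in control libraries of the resistant pool. Susceptible libraries held 268, 181 and 344 RPKM under water and 141, 108 and 177 RPKM as controls, and neither pool had an overlap (log2 changes of -0.64 and 0.87, SE 0.30). BnaA05G0416300ZS had 25.02, 35.5 and 33.6 RPKM in submerged and 65.8, 44.4 and 46.2 RPKM in control libraries of the resistant pool, against 39.8, 26.1 and 47.96 RPKM in submerged and 22.9, 11.5 and 23.8 RPKM in control libraries of the susceptible pool. It too had no overlap, whereas the next did in both pools. BnaC04G0002100ZS had 99.5, 54.4 and 88.1 RPKM in submerged and 69.2, 18.8 and 54.6 RPKM in control libraries of the resistant pool. Susceptible libraries held 42.6, 97.9 and 56.4 RPKM under water and 111, 64.7 and 216 RPKM as controls. BnaA04G0249000ZS, at 51.3 RPKM on average, also overlapped in both pools, with log2 changes of 0.90 and -0.80 (SE 0.48).

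In most of the genes the order of the pools turned. The pool with the higher group mean under water was not the higher one in controls for 27 of the 38 and 34 of the 41 genes, 77.2% of the set, against 28.3% of the 41498; opposite changes favour such turning. The pools came closer under water in 8 and 5 genes and moved apart in 3 and 2. Among the 38, the highest group was resistant submerged in 18 and susceptible control in 20 genes. Among the 41 it was resistant control in 25 and susceptible submerged in 16. The limits leave only these 2 groups of each list as possible highest ones. The median gap between pools, resistant minus susceptible, was 1.14 under water and -0.98 in controls for the 38 genes, and -0.70 and 1.11 for the 41. By the limits this gap must be higher under water than in controls in the 38 and lower in the 41.

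The level of each pool averaged over both treatments is a contrast that the limits on the changes did not use, so it was tested. By limma at an adjusted p under 0.05, this resistant average was higher in 8 of the 38 genes (21.1% of the 57391 tested genes) and lower in 7 (8.93%). Where the order of the pools turns, the average describes neither treatment, and a call can come mostly from 1 of them. BnaC03G0669200ZS, called higher, had a gap between pools of 1.75 under water and -0.30 in controls. BnaC01G0200700ZS, called lower, had gaps of 0.12 and -2.36. Others kept 1 sign in both, as BnaA05G0442900ZS did, called lower with gaps of -0.39 and -2.32. Of the 41 genes, 7 were higher and 4 lower, so 32.9% of the 79 were called in all. In 11 of the 79, 7 of the first and 4 of the second list, the mean of 1 pool was under 2 RPKM, so they met the limit on the mean through the other pool, and their pool difference is no support. Without them, chosen after the data were seen, 6 were called higher and 4 lower in the first list, and 5 higher and 2 lower in the second. The share of all genes under that restriction was not counted, so nothing is read from these counts. Scaling moved the split in the first list to 5 higher and 10 lower (median ratio) or 8 lower (quantile). Over all tested genes it moved from 12097 higher and 5123 lower to 8347 and 7401 (median ratio) or 8906 and 6271 (quantile). The median difference was 0.16 in the first and 0.12 in the second list, against 0.08 over all tested genes. Without a filter on low values the 8 became 5 and the second list's 4 became 2, and with a mean of at least 5 RPKM the 8 became 5 and the 7 became 4. The count of 8 was 3 without the first and 4 without the third resistant submerged library, 4 without the first susceptible control, and 5 without the second resistant control or either of the other susceptible controls. The count of 4 was 2 without the first resistant submerged library or the first or second susceptible control.

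The largest such differences were above 1 on the log2 scale. In the first list, BnaC07G0021000ZS differed by 1.33 ± 0.23 (SE) and BnaA04G0210200ZS by 1.12 ± 0.18 (SE), with higher averages in the resistant pool. For BnaC07G0021000ZS the gap between pools was 2.70 under water and -0.04 in controls. Both genes averaged under 2 RPKM in the susceptible pool, so these are given with no test. BnaC04G0230300ZS had the largest estimate, 1.37 ± 0.52 (SE; limma adjusted p = 0.0688), but of the alternatives tried passed only without its second submerged resistant library (adjusted p = 0.0238 in limma). Its first resistant submerged library held 79.2 RPKM and the other 2 held 7.80 and 17.8 RPKM. At the other end, BnaA04G0246800ZS had a lower average in the resistant pool, with a difference of -1.75 ± 0.25 (SE, limma adjusted p = 0.000503). Its gap between pools was -3.28 in controls and -0.22 under water, so this difference came mostly from the controls. BnaA04G0277400ZS differed by -1.68 ± 0.29 (SE) and averaged under 2 RPKM in the resistant pool, so it too is given with no test. BnaA05G0213500ZS had the lowest estimate, -1.98 ± 1.02 (SE; limma adjusted p = 0.164), with replicates that disagreed, and of the alternatives tried passed only without the second susceptible submerged library (limma adjusted p = 0.0327). For BnaA04G0277400ZS resistant libraries held 0.282, 1.54 and 1.87 RPKM under water and 0, 0.261 and 0.403 RPKM as controls, and susceptible ones 1.80, 4.17 and 2.03 RPKM under water and 6.14, 12.4 and 3.35 RPKM as controls.

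In the second list the A03 pair stood out, with differences of 2.05 ± 0.21 (SE; limma adjusted p = 5.71e-05) for BnaA03G0429100ZS and 2.05 ± 0.29 (SE; limma adjusted p = 0.000465) for BnaA03G0429000ZS. BnaA01G0388900ZS followed, at 1.66 ± 0.29 (SE), given with no test since it averaged under 2 RPKM in the susceptible pool. It had 3.09, 6.83 and 5.29 RPKM in submerged and 8.91, 11.7 and 9.47 RPKM in control libraries of the resistant pool, against 3.46, 1.93 and 1.47 RPKM in submerged and 1.13, 0 and 2.86 RPKM in control libraries of the susceptible pool. All of these had a higher mean in the resistant pool in both treatments. BnaC08G0414600ZS was lower in the resistant pool, with a difference of -0.94 ± 0.19 (SE; limma adjusted p = 0.00434). BnaA02G0184700ZS differed by -1.48 ± 0.47 (SE) and averaged just under 2 RPKM in the resistant pool, so it is given with no test. BnaA02G0184700ZS had 1.24, 1.57 and 0.764 RPKM in submerged and 3.61, 2.99 and 1.76 RPKM in control libraries of the resistant pool. Susceptible seedlings gave 6.39, 27.5 and 4.05 RPKM when submerged and 5.34, 13.8 and 1.43 RPKM as controls. The second susceptible libraries of both treatments held most. BnaC08G0414600ZS had 3.37, 1.51 and 4.60 RPKM in submerged and 9.39, 5.79 and 6.17 RPKM in control libraries of the resistant pool. Susceptible seedlings gave 11.4, 13.9 and 11.9 RPKM when submerged and 7.72, 6.03 and 9.84 RPKM as controls. Its pools were apart under water and closer in controls, where both groups lay between 5.79 and 9.84 RPKM. BnaA09G0328000ZS had an estimate of -1.03 ± 1.13 (SE; limma adjusted p = 0.507) and did not pass.

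The replicates of these genes were more scattered than those of other genes. The median within-group SD of log2(RPKM + 1) was 0.517 over the 79 genes and 0.203 over the 41498, and 46 of the 79, or 58.2%, lay above the 90th percentile of the 41498, which is 0.457. The SD ran from 0.160 to 2.31 in the first and from 0.170 to 2.33 in the second list. A large spread makes large differences of means more frequent, so the limits favour such genes. At the quiet end, chosen after the values were seen, BnaA05G0442900ZS had 5.21, 3.77 and 4.33 RPKM in submerged and 1.28, 1.26 and 1.27 RPKM in control libraries of the resistant pool. Susceptible libraries held 5.97, 5.17 and 7.32 RPKM under water and 10.96, 10.9 and 9.13 RPKM as controls, and every group was separate except the submerged ones, which met at 5.21 and 5.17 RPKM. BnaC06G0436700ZS had 1.02, 1.32 and 1.13 RPKM in submerged and 1.90, 2.18 and 2.96 RPKM in control libraries of the resistant pool, against 4.68, 3.61 and 3.88 RPKM in submerged and 1.82, 1.58 and 2.25 RPKM in control libraries of the susceptible pool.

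**Figure D4:**
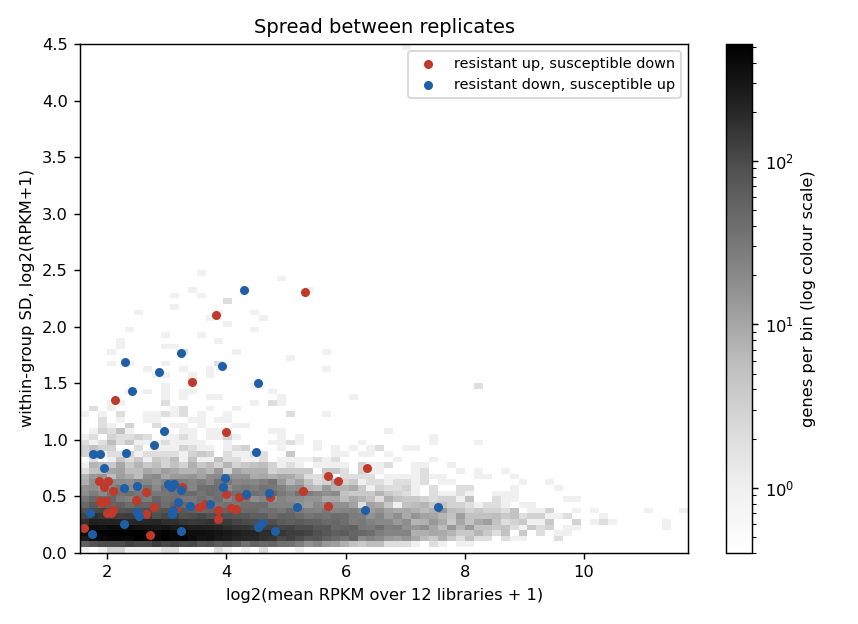
Within-group SD of log2(RPKM + 1) against the log2 of the mean RPKM plus 1, for the 41498 genes (grey bins, log colour scale) and the 79 genes (points). Most of the 79 lie above the dense band, with a median SD of 0.517 against 0.203, and several lie above 1 where few other genes do.

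In 11 of the 79 genes a group held a replicate listed at 0 beside another at 5 RPKM or more, 4 in the first and 7 in the second list. That is 13.9% of the set and 0.231% of the 41498 genes, where 96 genes behaved so. All but 1 of the 11, BnaC02G0313800ZS, lie on A chromosomes. How the 96 split between A and C chromosomes was not counted, so nothing is read from this. BnaA05G0256900ZS had 33.2, 63.9 and 27.9 RPKM in submerged and 0, 53.7 and 66.2 RPKM in control libraries of the resistant pool. Susceptible libraries held 0, 37.3 and 0 RPKM under water and 58.00, 57.9 and 69.4 RPKM as controls. Its change of -4.21 in the susceptible pool, the lowest of the set, came with 2 submerged libraries listed at 0, and that of the resistant pool with 1 control at 0. BnaA07G0062200ZS was listed at 0 in all 3 resistant submerged libraries and had 7.69, 5.74 and 0 RPKM in resistant controls. It had 0, 13.01 and 10.6 RPKM in submerged and 10.1, 0 and 0 RPKM in control libraries of the susceptible pool. BnaA09G0328000ZS had 17.7, 0 and 10.97 RPKM in submerged and 14.6, 0 and 49.7 RPKM in control libraries of the resistant pool, and 36.5, 15.6 and 25.8 RPKM in submerged and 31.6, 22.2 and 0 RPKM in control libraries of the susceptible pool. An exact 0 beside a high value in a replicate can be a failed estimate as well as absent RNA, which was not tested. Without such genes 34 and 34 remained.

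The limits on the changes were applied again to 2 of the 3 replicate numbers in every group, and the change was read in the third. The 41498 genes stayed the same, so the limit on the mean still used all 12 libraries, those set aside included. With replicate 1 set aside, 45 genes were taken as higher under water in the resistant and lower in the susceptible pool. In replicate 1 itself 31 of them, 68.9%, had both signs again, against 10.6% of the 41498 genes. Of 71 genes of the other list 34 did so, 47.9% against 13.7%. Setting replicate 3 aside gave 52 genes in each list, of which 28 each, 53.8%, had both signs again, against 15.2% and 13.7% of all. Replicate 2 repeated least, with 29 of 79 (36.7%, against 12.4%) and 27 of 80 (33.8%, against 10.2%). Of those 80, 20 had both signs turned. Over the 12 libraries only 18.9% of the 41498 genes had opposite signs, so the shares of all genes are low. They are not matched for spread between replicates, so nothing is read from the excess.

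The size of the difference shrank in the set-aside replicate. The median difference between the changes, resistant minus susceptible, was 1.92, 1.99 and 2.05 in the choosing libraries for the first list with replicate 1, 2 or 3 set aside, and 1.16, 0.524 and 1.4 in the replicate set aside. For the second list it was -1.77, -1.87 and -1.87 in choosing libraries and -0.959, -0.440 and -0.731 in the others. The limit of 0.6 in both pools was passed again by 11 of 45, 4 of 79 and 11 of 52 genes of the first and by 8 of 71, 11 of 80 and 8 of 52 of the second list. Of the 41498 genes 0.354%, 0.207% and 0.357% did so in the direction of the first and 0.296%, 0.263% and 0.463% in that of the second list. Replicates of 1 number are not known to be paired, and with 1 library per group there is no test.

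**Figure D5:**
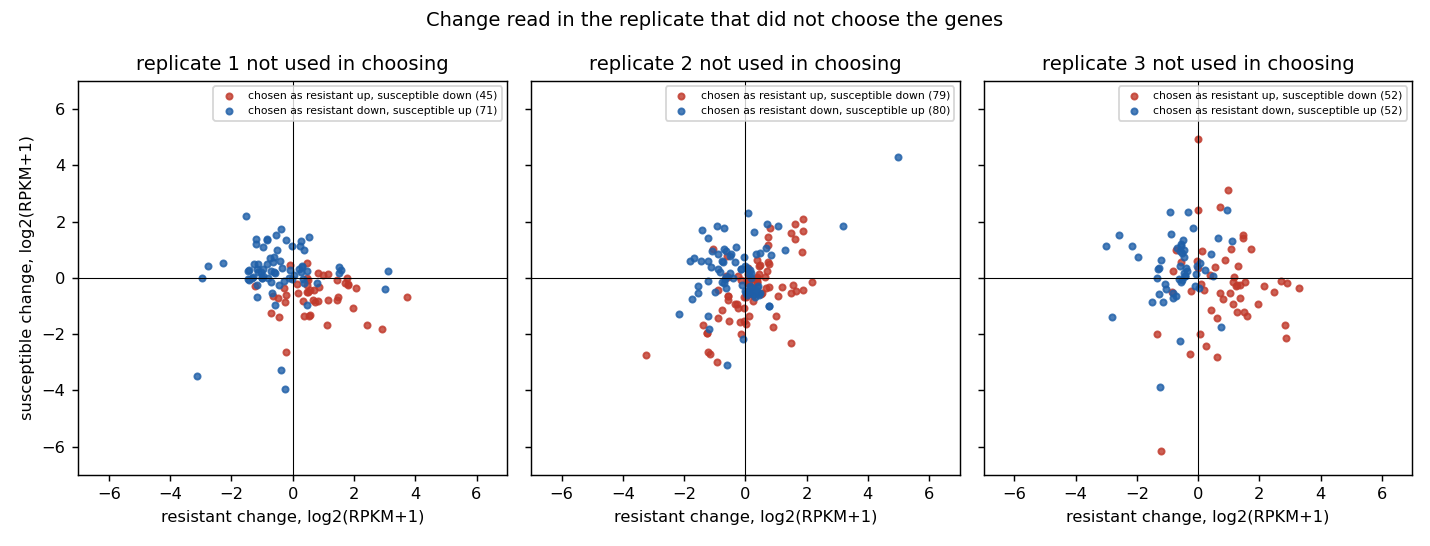
Log2(RPKM + 1) of the submerged minus the control library of 1 replicate number in the resistant (horizontal) and susceptible pool (vertical), for genes chosen on the other 2 numbers. Red genes lie at the lower right for 68.9%, 36.7% and 53.8% with replicates 1, 2 and 3, and blue ones in the upper left for 47.9%, 33.8% and 53.8%.

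Single libraries moved the membership. Without any 1 of the 12 libraries, between 56 and 75 of the 79 genes met the limits still. The lowest number, 56, came without the second susceptible submerged or the third susceptible control library. The first list grew to 63 genes without the second resistant control, and the second to 68, 66, 65 and 63 without the second susceptible submerged, the second susceptible control, the first susceptible submerged and the third susceptible submerged library. The 17 genes without overlap became 29 without the second library of resistant submerged, resistant control or susceptible control seedlings, and the 16 became 25 without the first susceptible submerged and 26 without the second susceptible control; 2 libraries overlap less easily than 3. All 12 settings kept 10 genes of the first and 9 of the second list, among them BnaC04G0595200ZS, BnaC07G0021000ZS, BnaC03G0034500ZS, BnaC05G0435500ZS and both genes of the A03 pair. BnaA07G0062200ZS, at 0 in 7 libraries, was kept too, with overlap in both pools and a within-group SD of 1.69. So was BnaA08G0190200ZS, with overlap in the resistant pool. Being kept therefore does not mean that replicates agreed. In the first list the second resistant submerged library lay below its group mean with a median deviation of -0.265, and the second resistant control above it, at 0.225. In the second list the second susceptible control lay above its mean, at 0.247, and the third below it, at -0.254.

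The genes were spread over the A and C chromosomes. A chromosomes held 20 of the 38 and 21 of the 41 genes, and the C share of 48.1% was near the 50.9% of the 41498. Of the 41498 genes A04 gave 6 of 1238, A01 6 of 1927 and C04 7 of 2323, while C05 gave 1 of 2439 and C01 1 of 2054. On A04, 5 of its 6 genes were in the first list, and on C04 6 of 7; A03 had 3 genes and A10 2, all in the second. Numbers per chromosome run from 1 to 8, too few to compare.

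Flanking genes shared the sign of these genes about as often as neighbours do elsewhere. Of the 380 tested genes within 5 places of a gene of the first list, 56.3% had a difference between responses of the same sign, as did 59.4% of 409 near the second, against 54.4% between such neighbours over all tested genes on A and C chromosomes. Deviations from group means were correlated over 12 libraries with those of each neighbour, and r was averaged for each gene. The median of this mean r was 0.069, against 0.079 over all tested genes on A and C chromosomes. It was above 0.3 in 12 of the 79 and in 11.2% of all. The highest mean r belonged to BnaA01G0420100ZS on A01, chosen after the values were seen, at 0.826. It had 1.23, 1.76 and 1.85 RPKM in submerged and 1.03, 0.348 and 0.398 RPKM in control libraries of the resistant pool. Susceptible libraries held 3.90, 4.84 and 1.17 RPKM under water and 4.74, 4.99 and 6.95 RPKM as controls. All 10 flanking genes had a lower mean in susceptible submerged than control libraries, with changes of -0.24 to -1.52, and the difference between responses had the same sign in all 10. The A01 pair, BnaA01G0415300ZS and BnaA01G0415400ZS, precedes it in identifier order, with a mean r of 0.43 and 0.44. Of their 10 neighbours 8 and 9 shared the sign. BnaA01G0421800ZS, just outside the limit, follows it. The pooled shares do not show this stretch of A01, which was not tested. BnaA05G0213500ZS was the reverse case, with a mean r of 0.527 to its neighbours but none of the 10 sharing its sign. It had 6.97, 17.2 and 0 RPKM in submerged and 0, 15.3 and 0 RPKM in control libraries of the resistant pool, and 26.6, 0 and 25.9 RPKM in submerged and 28.2, 18.7 and 20.05 RPKM in control libraries of the susceptible pool.

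The limit of 0.6 cut through a run of genes with similar values. Just inside, BnaC03G0028500ZS had 3.91, 3.26 and 2.56 RPKM in submerged and 1.14, 1.51 and 2.32 RPKM in control libraries of the resistant pool, and 1.06, 1.45 and 0.932 RPKM in submerged and 2.34, 2.04 and 2.35 RPKM in control libraries of the susceptible pool, with log2 changes of 0.69 and -0.60 (SE 0.17). BnaC02G0202200ZS had log2 changes of -0.61 and 0.98 (SE 0.18) and no overlap, while another gene at the limit, BnaA09G0328000ZS, had log2 changes of -0.61 and 1.49 (SE 1.60) and overlapped in both pools. BnaA06G0297700ZS, BnaA07G0185400ZS and BnaA10G0083000ZS were the others just inside, with smaller changes of 0.60, 0.61 and 0.61. Just outside were BnaA09G0688000ZS, with changes of 0.60 and -0.88, BnaA07G0213300ZS with 0.62 and -0.60, and BnaA01G0421800ZS with 0.59 and -0.80. In the other direction, BnaA07G0008700ZS had -0.97 and 0.60, BnaC03G0683500ZS -0.60 and 1.47 and BnaA08G0190100ZS -0.59 and 2.22. The last of these is the next identifier to BnaA08G0190200ZS, which was inside.

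Chosen after its values were seen, BnaA08G0190200ZS had the largest positive change of the susceptible pool in the set. It had 3.58, 24.1 and 4.54 RPKM in submerged and 12.1, 22.9 and 31.9 RPKM in control libraries of the resistant pool. Susceptible libraries held 52.2, 60.3 and 19.5 RPKM under water and 10.5, 11.4 and 6.18 RPKM as controls. The susceptible groups were apart, whereas the second resistant submerged library lay within the range of resistant controls (log2 changes of -1.34 and 2.01, SE 0.62). BnaA08G0190100ZS, beside it, had 4.50, 35.1 and 10.6 RPKM in submerged and 12.6, 20.9 and 25.03 RPKM in control libraries of the resistant pool, and 71.6, 75.3 and 39.9 RPKM in submerged and 12.01, 19.1 and 7.57 RPKM in control libraries of the susceptible pool. The second resistant submerged library was the highest of its group for both genes.

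Of the genes that passed the interaction test and that no rule named, 4 not described above are given here after their values were seen. BnaA05G0442900ZS, described above for its low spread, passed too. BnaC01G0200700ZS had 81.9, 42.1 and 42.4 RPKM in submerged and 20.4, 17.97 and 10.1 RPKM in control libraries of the resistant pool. Susceptible seedlings gave 38.9, 58.9 and 50.01 RPKM when submerged and 82.3, 73.8 and 96.3 RPKM as controls. Resistant controls were lowest and susceptible controls highest, and no libraries overlapped within a pool. BnaA01G0157600ZS had 24.4, 14.1 and 17.7 RPKM in submerged and 5.92, 6.28 and 3.21 RPKM in control libraries of the resistant pool. Susceptible seedlings gave 8.002, 10.8 and 16.5 RPKM when submerged and 17.6, 17.2 and 20.5 RPKM as controls. Resistant controls were again lowest, and the first resistant submerged library was the highest of all 12. BnaC08G0436500ZS had 18.3, 22.1 and 19.03 RPKM in submerged and 32.4, 49.5 and 35.9 RPKM in control libraries of the resistant pool. Susceptible seedlings gave 29.4, 28.8 and 33.3 RPKM when submerged and 17.6, 21.9 and 18.9 RPKM as controls. The low groups of this gene, resistant submerged and susceptible control, shared the range from 17.6 to 22.1 RPKM. BnaA06G0452100ZS had 9.21, 6.62 and 14.9 RPKM in submerged and 14.01, 28.3 and 22.2 RPKM in control libraries of the resistant pool. Susceptible seedlings gave 12.4, 11.7 and 15.5 RPKM when submerged and 3.63, 3.10 and 6.13 RPKM as controls. Susceptible controls were the lowest group, and 1 resistant submerged library lay above the lowest resistant control.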

How the data were processed

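The authors deposited RPKM values (reads relative to gene length and mapped reads) for 109614 genes in 12 libraries. The submitters' processing notes name HISAT2, an aligner, and StringTie, an assembler; no source used here gives versions, genome build or annotation. Reads that fit A and C copies alike can be split or lost, so single copies are uncertain. The RefSeq table (123214 rows) paired 0 identifiers with a name, so lists of pathway and cell type genes could not be used.

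Values were taken as log2(RPKM + 1), which understates changes of weak genes. The members and lists were chosen with earlier results of these data known. Genes reaching 1 RPKM in 3 or more libraries (57391, all 79 members included) were fitted in limma 3.58.1 (R 4.3.3) with a trend, 4 group means and all 12 libraries (8 residual and 3.345 prior degrees of freedom), with 2-sided p-values adjusted by Benjamini-Hochberg at 0.05; SEs are from that fit. The fit was tried on simulated data with normal noise and a shift between pools alone. Those data held no response to submergence, so they do not cover genes whose pools turn. The tested contrast was the resistant minus the susceptible mean of both treatments, which is orthogonal to both responses but not independent of the limit on the mean. Count models need whole reads and were left out. The labels call replicates biological and do not say what separated them; p-values measure only the spread between these mixtures.

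Genes were named by rule: in each list the 8 with the largest smaller change without overlap, the 3 most abundant, the 3 highest and 3 lowest in the pool contrast, the 3 just inside and outside the limit, and runs of neighbours. Relative depth came from ratios of values under 0.3 RPKM; 65 of 66 library pairs agreed within 0.01 log2. No 2 libraries were alike: at least 70.6% of genes differed. Alternatives were another pseudocount, filters, limits and scalings, a replicate block and leaving out each library; the removal of genes listed at 0 in 1 replicate, and the recount of genes without overlap and of genes with at least 2 RPKM in each pool were added after seeing the data. Python 3.11.15 was used for counts and plots.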

Additional observations from a re-analysis of the deposited data

Results flagged for a closer look

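The difference between the submergence responses of the pools, resistant minus susceptible, passed limma's interaction test at an adjusted p under 0.05 in 8 of the 38 genes that were higher under water in the resistant pool, and in 8 of the 41 that were lower. Of all tested genes 0.192% and 0.141% were called in those directions. These genes were chosen for that difference, so it is given as a description. On the log2(RPKM + 1) scale it was 4.11 for BnaC06G0177700ZS, 3.83 for BnaC04G0595200ZS, 3.07 for BnaA04G0246800ZS, 2.74 for BnaC07G0021000ZS and 2.29 for BnaC08G0512600ZS. In the other list it was -3.10 for BnaC03G0034300ZS, -2.36 for BnaC03G0034500ZS, -2.02 for BnaC03G0295200ZS, -1.84 for BnaC05G0435500ZS and -1.59 for BnaC02G0202200ZS.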

How the results depend on the processing

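The 38 and 41 genes depend on the limits. With a pseudocount of 0.1 RPKM they became 66 and 83, and with a limit of 0.5, 65 and 81. A limit of 0.8 left 16 and 16, a limit of 1 left 6 and 9, and a mean of at least 5 RPKM left 25 and 28. Leaving out 1 library gave 36 to 63 and 38 to 68 genes, and the 17 and 16 genes without overlap became 17 to 29 and 14 to 26. A filter on mean expression over all genes in the pool contrast lowered the calls from 12097 to 5416 higher and from 5123 to 2917 lower, with fewer genes tested; leaving out 1 library gave 9527 to 13152 and 4222 to 5854. The 8 genes of the first list called higher were 5 without a filter, with the stricter filter, and under quantile or median ratio scaling, and 3 to 8 with 1 library left out. The 7 called lower were 4 with the stricter filter and 7 to 9 with 1 library left out. In the second list the 7 called higher were 7 to 9, and the 4 called lower were 2 without a filter and 2 to 5 with 1 library left out. With at least 2 RPKM in each pool, 6 and 4 genes of the first and 5 and 2 of the second list were called higher and lower. The share of all genes under that restriction was not counted, so nothing is read from these counts. The stricter filter left the 13 genes of each list under 5 RPKM out of the fit. The cause of these shifts was not tested.

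Replicate numbers did not pair the libraries: of 18 same-numbered pairs 5 had a correlation of deviations over 0.1 (-0.34 to 0.39). With replicate number as a block the lists stayed at 38 and 41, the calls over all genes were 11110 and 4917, and the 8 became 4.

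Alternatives for single genes were run on 34 named genes; pool differences near 0 changed sign for 3 of them. BnaA06G0297700ZS gave -0.019 with quantile and -0.072 with median ratio scaling, and -0.105 to 0.207 with 1 library left out. BnaC03G0034500ZS gave -0.023 with median ratio scaling, and -0.050 to 0.215 with 1 library left out (-0.050 without the third resistant control). BnaC08G0512600ZS gave -0.061 with quantile and -0.015 with median ratio scaling, and -0.090 to 0.151 with 1 library left out (-0.090 without the first resistant control). Absolute depth is unknown, so counting error cannot be given for weak genes.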

Other observations

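The same limits were also met outside the A and C chromosomes. Among transcripts listed as new genes with a mean of at least 2 RPKM, 3 were higher under water in the resistant and lower in the susceptible pool and 5 the other way, together 0.391% of 2044. Among scaffold genes 4 and 1 did so, together 0.491% of 1019. The share among genes on A and C chromosomes was 0.190%. These values were not tested.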
